A study of Mus musculus with 2 samples.

Results

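C1q macrophages were the barcodes of 1 droplet library that carried at least 3 UMIs (unique molecular identifiers, each counting 1 captured transcript) of each of C1qa, C1qb and C1qc and no UMI of Cdh5, the VE-cadherin gene of endothelial cells (ECs). They also had 2000 to 75000 gene UMIs, more than 500 genes, and under 5% of UMIs from each of the mitochondrial and the globin genes. Of the 14350 barcodes within these limits, 82 met the rule, which is 0.571% (exact 95% binomial interval 0.455 to 0.709, covering counting error only). They are called C1q barcodes here and are compared with the other 14268 passing barcodes. The rule was applied with any hashtag, and every level of C1qa, C1qb, C1qc and Cdh5 below is a description of that choice. Because the members were chosen from the same counts, all other differences from the remaining barcodes are descriptions too, with no test.

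The library pooled liver and heart cells of C57BL/6 pups from 6 hashtag groups, which were control, iSuRe-Cre and iSuRe-HadCre in each tissue. By the labels, pups received 1 dose of 40 mg/kg 4-hydroxytamoxifen at postnatal day 3, and tissues were taken 3 days later, at an age given as P6-P7. The iSuRe groups carried Cdh5-CreERT2, a tamoxifen-inducible Cre driven by the Cdh5 promoter and so restricted by design to ECs, together with an iSuRe allele. After recombination the iSuRe-Cre allele expresses membrane Tomato and Cre together, whereas in iSuRe-HadCre a Flp step removes Cre and turns membrane Tomato on. Floxed Notch1 alleles in these groups are known from the study and not from the labels, and the genotype of the control was not given in the sources used here. Cells were sorted as CD31+ MbTomato+, although the design text of the series names both presence and absence of the reporter. The study's general flow cytometry methods define ECs as CD31+ and CD45-, but the sort described in the labels for this library names no CD45 stain. Ptprc, the CD45 gene, had a UMI in 63 of the 82 C1q barcodes, at 223 against 21.8 CPM (the gene's share of all UMIs of a set, on the usual CPM scale). Nothing in the sources says how many pups entered each pool, and with 1 library there is no spread between animals.

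Tissue macrophages are phagocytes seeded before birth and later joined by cells derived from blood monocytes. They depend on signalling through the CSF1 receptor, take up dying cells and senescent red cells, degrade them in lysosomes and export the recovered iron and lipid. They are also a main source of C1q, the recognition unit of the classical complement pathway, whose A, B and C chains assemble into the same molecule. In the liver the resident form is the Kupffer cell, marked by Clec4f, Vsig4 and Timd4, and in the heart and other organs a long-lived form carries Lyve1, Folr2 and Timd4, whereas Ccr2 marks monocytes and cells recently derived from them.

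The 3 chain genes lie side by side on the minus strand of chromosome 4 in GRCm38, all annotated as protein coding by GENCODE. C1qb (ENSMUSG00000036905) spans 136880129 to 136886187, C1qc (ENSMUSG00000036896) spans 136889804 to 136893065 and C1qa (ENSMUSG00000036887) spans 136895917 to 136898803, so the whole cluster covers 18675 bases. RefSeq promoter sequences (GRCm38.p6) matched 2 of the 3 genes by symbol, and the bases upstream of the annotated starts of C1qb and C1qc are shown because these genes define the members and were detected together. The sequences are written 5′ to 3′ on the gene's strand, with capitals marking 2 short motifs, the ETS core AGGAAGT that PU.1-type factors recognise (here as its reverse complement ACTTCCT) and the MAF half-site TGCTGA.
C1qb, chr4:136886201-136886450, minus strand: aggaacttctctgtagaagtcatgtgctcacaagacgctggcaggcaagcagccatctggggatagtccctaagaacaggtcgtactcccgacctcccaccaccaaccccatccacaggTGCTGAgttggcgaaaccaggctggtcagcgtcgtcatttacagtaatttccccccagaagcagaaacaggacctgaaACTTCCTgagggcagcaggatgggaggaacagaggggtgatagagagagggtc
C1qc, chr4:136893066-136893164, minus strand: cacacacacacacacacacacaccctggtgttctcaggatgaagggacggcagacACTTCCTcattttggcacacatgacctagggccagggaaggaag
Searched on both strands, AGGAAGT occurred once in each sequence, and its nearest base lay 60 bases before the annotated start of C1qb and 38 bases before that of C1qc. TGCTGA occurred once, 139 bases before the start of C1qb. In the RefSeq table, 9.35% of 32851 promoters of 300 bases held the first motif and 19.5% the second. The motifs were chosen after the sequences had been read, and a match is a description of letters and not of a bound site.

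Before the gene values, the tags of these barcodes need stating, since they decide which group a cell can be given to. Beside the 6 assigned hashtags the library held 5 multiplexing features, oligonucleotide labels named CMO301 to CMO305, to which the labels give no group. A dominant multiplexing tag (at least 50 UMIs and 3 times the next) was present on 53 of the 82 C1q barcodes, or 64.6% (95% interval 53.3 to 74.9). It was present on 27.8% of the other passing barcodes, on 14.9% of the 4362 barcodes with 3 or more Cdh5 UMIs, and on 27.2% of the 202 barcodes rich in Alb, Afp and Ttr. The highest multiplexing feature had a median of 1294.5 UMIs on C1q barcodes and 149 on the others. Conversely, a strong hashtag (at least 25 UMIs and 5 times its median over passing barcodes) was found on 3 of the 82, or 3.66% (95% interval 0.761 to 10.3). It was found on 18.0% of the other passing barcodes and 44.5% of the Cdh5 barcodes. In the barcodes rich in Alb, Afp and Ttr the share was 6.44% (3.47 to 10.8), which overlaps the C1q interval. The highest of the 5 hashtags other than that of iSuRe-Cre liver, which alone had a median of 23.5 UMIs, had a median of 4 UMIs on C1q barcodes. On the other passing barcodes the iSuRe-Cre liver hashtag had a median of 28 UMIs and the highest of the 5 a median of 5.

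HTODemux, which fits a background to each hashtag, called 48 of the 82 negative and 7 doublets. It gave the remaining 27 to control liver (15), iSuRe-HadCre liver (5), control heart (3), iSuRe-Cre liver (2), iSuRe-HadCre heart (1) and iSuRe-Cre heart (1). Leaving out barcodes of exactly 2000 UMIs before the fit, a choice made after seeing the data, changed control liver from 15 to 5 and control heart from 3 to 10. Over all passing barcodes the same step moved control liver from 1493 to 487. Levels between tissues and alleles were therefore not compared, and all values below are over the 82 barcodes as 1 set.

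**Figure D1:**
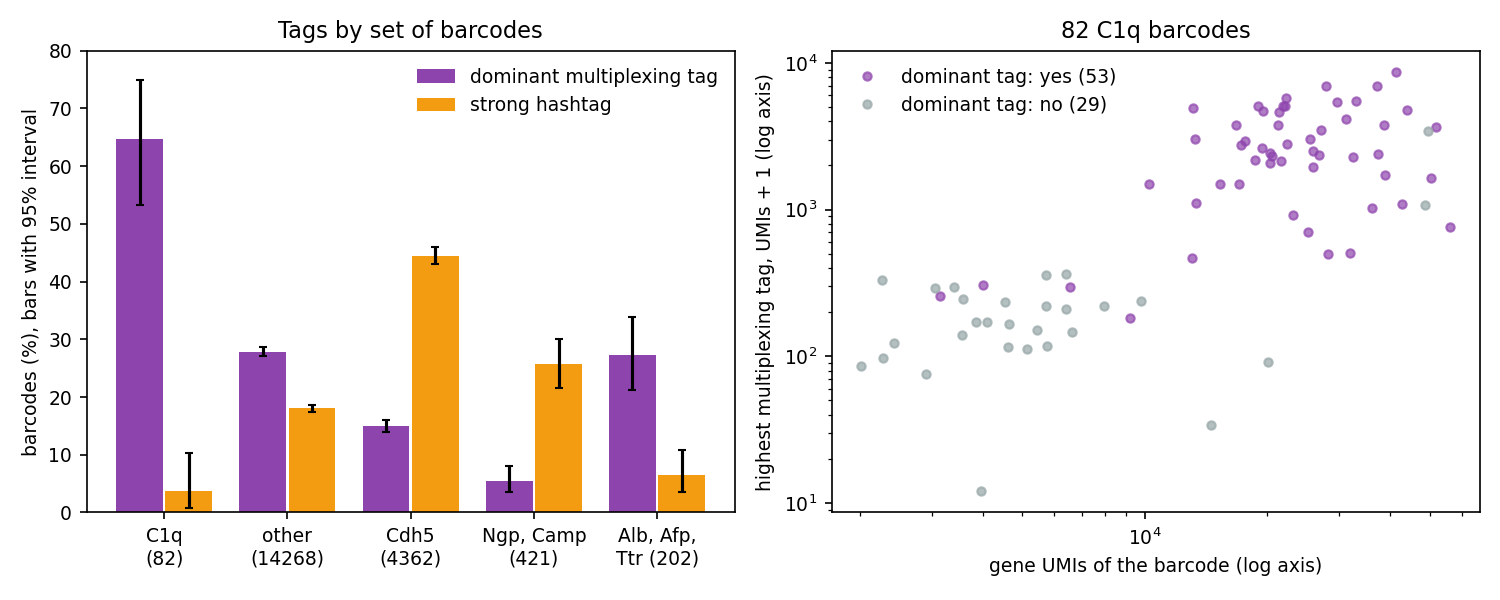
Left, share of barcodes (%) with a dominant multiplexing tag and with a strong hashtag in C1q barcodes and 4 other sets, with exact 95% binomial intervals. Right, gene UMIs of each of the 82 C1q barcodes against its highest multiplexing feature (UMIs plus 1), both on log axes. C1q barcodes had the most multiplexing tags (64.6%) and the fewest strong hashtags (3.66%) of the 5 sets, and the tagged barcodes were mostly the deep ones. The strong hashtag interval overlapped that of the Alb, Afp and Ttr set (6.44%).

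The C1q barcodes were deep. They held 1576913 gene UMIs in all, from 2015 to 56177 per barcode with a median of 18799, and a median of 4113 genes. The other passing barcodes had a median of 5692.5 UMIs. The 53 tagged C1q barcodes had a median of 22244 UMIs and the 29 untagged ones 4648. For this reason shares of barcodes with a UMI are also given after thinning each barcode to 2000 UMIs, as the mean over all possible draws.

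C1qa was at 3 UMIs in the lowest barcode, 24 at the median and 76 in the highest. For C1qb these values were 3, 43.5 and 118, and for C1qc 3, 30 and 81. Just inside the threshold, 14 barcodes had a smallest C1q count of 3 (median depth 3491 UMIs), with Csf1r at 304.9 and Tyrobp at 1742 CPM. Just outside, 14 barcodes with a smallest count of 2 (median depth 3218.5 UMIs) had Csf1r at 84.8 and Tyrobp at 764 CPM. A further 68 barcodes had 3 or more UMIs of each chain but also Cdh5, 25 of them with a single Cdh5 UMI and 34 with 3 or more. Their Csf1r was at 306.7 CPM and their Cdh5 at 193 CPM, and whether they held a macrophage and an EC or free Cdh5 transcripts was not tested.

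Genes were compared as the log2 ratio of CPM with 10 CPM added to both sides, which understates the ratio of low genes. Of 13879 genes with at least 200 UMIs over all passing barcodes, 245 (1.77%) were at least 4-fold higher in C1q barcodes and 368 (2.65%) at least 4-fold lower, and the median of all genes was -0.25. Counts in the gene lists below can be set against these shares, but nothing is read from them, since the rule used the same contrast. Apart from the 3 chains, the 10 highest ratios belonged to Pf4, F13a1, Cxcl2, Fcrls, Aif1, Csf1r and Ms4a6c. The 10 lowest were Cdh5, the hepatocyte genes Ttr, Afp, Apoa2, Rbp4, Alb and Apoa1, and Fabp4, Kdr and Cavin2, which ECs express.

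Checked against the label, macrophage identity genes were higher as a group: 15 of 17 tested members of that list were at least 4-fold higher and none was lower (median log2 ratio 4.10). Csf1r, the receptor that macrophages need to survive, was at 449.6 CPM against 7.50 in the other barcodes, a ratio of 59.9 (exact 95% interval 54.4 to 66.0, counting error only). Per barcode Csf1r ran from 0 over a median of 424 to 2268 CPM, and 71 of 82 barcodes had a UMI. Tyrobp, the adaptor of activating myeloid receptors, was found in all 82, from 126 over 1533 to 4219.7 CPM. Fcer1g, a separate adaptor, was found in 81 of the 82, at 2277 CPM in all and 85.4 in the other passing barcodes. The adaptors were thus present throughout the set, whereas Csf1r had a UMI in 52 of the 53 tagged and deeper barcodes and in 19 of the 29 untagged ones.

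Aif1, an actin-binding marker of macrophages, was at 583 CPM against 10.3, and Adgre1, the F4/80 antigen, was at 235 against 4.28. Fcgr1, the high-affinity IgG receptor, was at 159 against 3.40 CPM. Cx3cr1, the fractalkine receptor, was at 527 against 14.3 CPM with a UMI in 69 barcodes. After thinning to 2000 UMIs, 53.1% of C1q barcodes kept a Csf1r UMI, against 1.38% of the others and 0.702% of the Cdh5 barcodes (median depth 8029 UMIs), which should lack it. The 2 members of the list below 4-fold were Mertk (ratio 4.09, log2 ratio 1.72) and Itgam (ratio 9.63 at a low level, log2 ratio 1.73). Cd163, a haemoglobin scavenger receptor found on many tissue macrophages, was too low to test: 3 UMIs, all in 1 barcode.

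Among macrophage transcription factors 6 of 16 were at least 4-fold higher and 1 was lower. Spi1, which encodes PU.1, was at 308 CPM against 19.2. Maf was at 858 against 131 CPM and ran from 0 over 667 to 2505 CPM per barcode, and its log2 ratio of 2.63 was 1.41 without the multiplexing-tagged barcodes. Cebpb was at 472 against 58.3 and Runx1 at 350.1 against 43.7 CPM, with Zeb2 and Irf5 completing the higher group. Klf4 was the exception, at 24.7 CPM against 163.

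**Figure D2:**
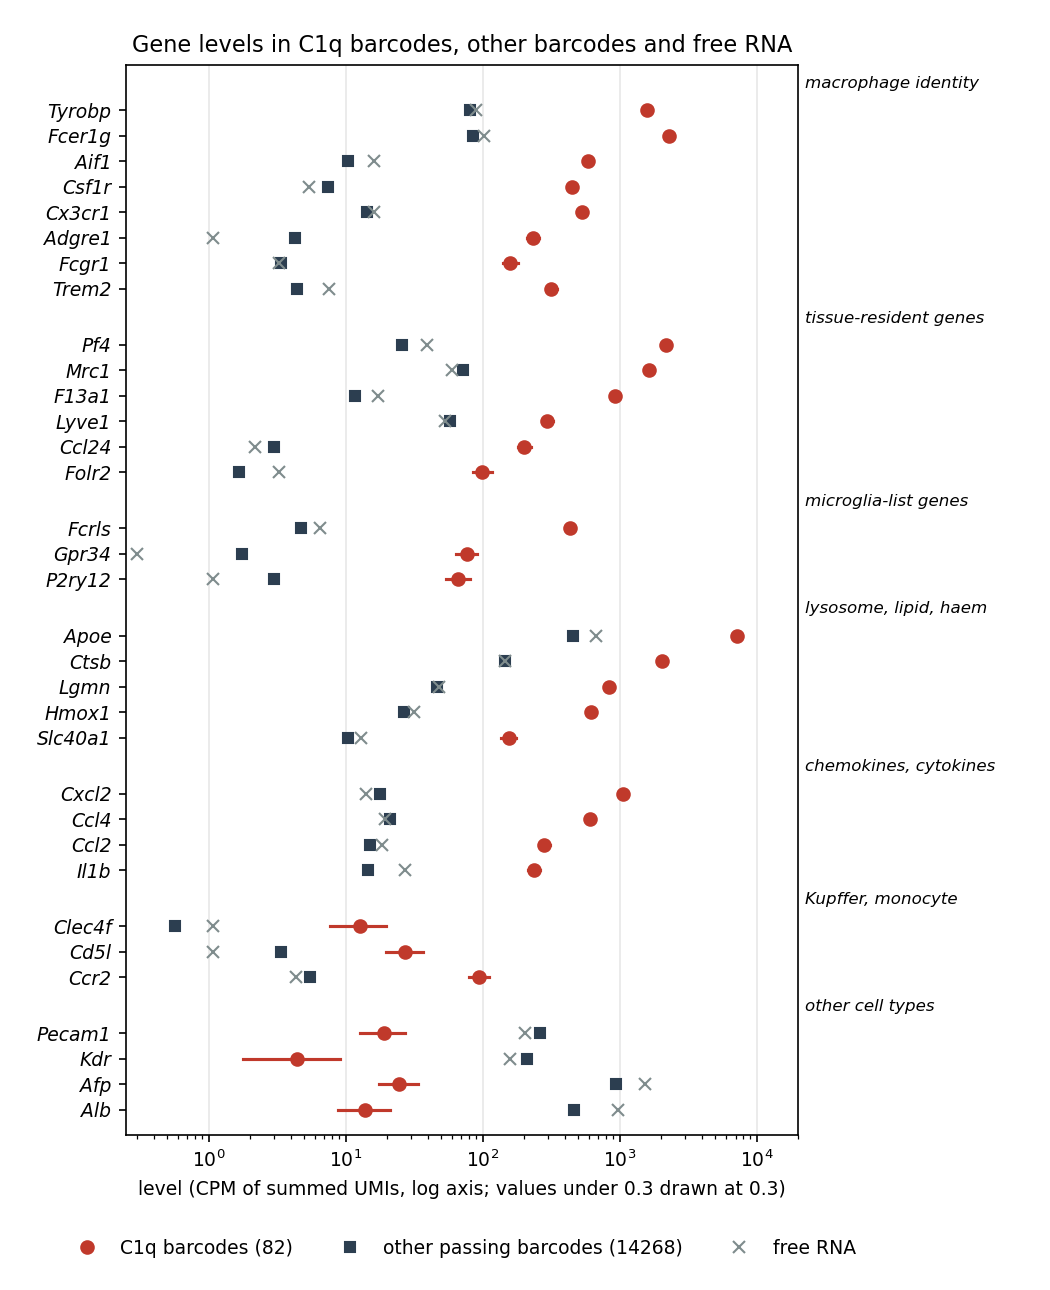
Level of each gene in CPM of summed UMIs (log axis) for the 82 C1q barcodes (circles, with exact 95% Poisson intervals), the 14268 other passing barcodes (squares) and free RNA from near-empty droplets (crosses); values under 0.3 are drawn at 0.3. Genes of the first 6 groups lay to the right in C1q barcodes, with Apoe furthest at 7232 CPM, and the EC and hepatocyte genes of the last group lay to the left.

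Genes of long-lived tissue macrophages were mostly higher, 6 of the 10 listed by at least 4-fold. Pf4, a chemokine known from platelets and resident macrophages, was at 2165 against 25.8 CPM and had a UMI in 63 barcodes, from 0 over 869.9 to 15669 CPM. F13a1, the coagulation factor XIII A subunit, was at 917 against 11.7 CPM, with a UMI in 60 barcodes. Platelet genes did not accompany them: 8 megakaryocyte and platelet genes summed to 7.61 CPM, below the 11.9 CPM of free RNA, and Gp1bb and Gp6 were among those at 0. Mrc1, the mannose receptor, which was listed with the identity genes, was at 1623 against 72.1 CPM and ran from 0 over 869 to 6474 CPM.

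Lyve1, a hyaluronan receptor shared with lymphatic and liver sinusoidal ECs, was at 297 against 57.5 CPM, with a UMI in 35 barcodes. Without the barcodes that carried a multiplexing tag its log2 ratio was 0.78 in place of 2.18. Folr2, the folate receptor beta, was at 99.6 against 1.66 CPM, with a UMI in 37. Ccl24 was at 202 against 2.98 CPM. Gas6 completed the higher group at 190 against 32.9 CPM. The other members did not reach 4-fold, with Fcna at a log2 ratio of 1.86, Selenop at 1.71, Igf1 at 1.21 and Cbr2 at 0.19.

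Several Kupffer cell genes were found in few barcodes. Clec4f gave 20 UMIs from 2 barcodes, 19 of them from 1 barcode with 4787 CPM. Vsig4 gave 6 UMIs from 2 barcodes, Cd5l 43 UMIs from 3 barcodes and C6 3 UMIs from 1. Marco, a scavenger receptor, gave 35 UMIs from 6 barcodes, 26 of them from 1. Timd4 had a UMI in 11 barcodes, at 12.05 CPM in all. Thinned to 2000 UMIs, 1.38% of C1q barcodes kept a Clec4f UMI. The list's 1 higher gene, Slc40a1, encodes the iron exporter ferroportin and is not restricted to Kupffer cells (155 against 10.4 CPM, 40 barcodes, and a log2 ratio of 1.67 without the multiplexing-tagged barcodes), and its 1 lower gene, Id3, was at 104 against 597 CPM. The whole list summed to 367 CPM against 631 in the other barcodes, and its median log2 ratio was 0.96.

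Of 9 tested microglia genes, listed because brain macrophages share much of this programme, 3 were at least 4-fold higher and 1 lower. The lower one, Sparc, an extracellular matrix protein that ECs and stromal cells also make, was at 117 against 1542 CPM, and the list summed to 947 against 1650 CPM. Fcrls, an Fc receptor-like gene, was at 431 against 4.72 CPM, and 73 barcodes had a UMI. Gpr34, a lysophosphatidylserine receptor, was at 76.7 against 1.76 CPM (44 barcodes), and P2ry12, an ADP receptor, at 66.6 against 3.02 CPM (40 barcodes). In C1q barcodes with and without a multiplexing tag Gpr34 was at 84.3 and 36.2 CPM (39 of 53 and 5 of 29 barcodes). P2ry12 was at 68.5 and 56.3 CPM in these. P2ry12 and Gpr34 were found together in 30 barcodes. Sall1, the factor that defines microglia, gave 2 UMIs from 1 barcode, and Tmem119 was at 9.51 against 12.6 CPM. Of 4 tested Langerhans cell genes 1 was higher, Ltc4s (78.6 against 9.15 CPM), while Cd207, which encodes langerin, gave 1 UMI. None of 3 tested osteoclast genes reached 4-fold, and Calcr, Dcstamp and Ocstamp were at 0.

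Monocyte genes had a median log2 ratio of -0.32, and MHC class II and dendritic cell genes one of -0.10, against -0.25 for all genes. Ccr2 was the only 1 of 9 tested monocyte genes at least 4-fold higher, at 94.5 against 5.53 CPM with a UMI in 17 barcodes, from 0 to 1312 CPM. Without the multiplexing-tagged barcodes its log2 ratio was 0.60 in place of 2.75. Ly6c2 gave 8 UMIs from 1 barcode. None of 7 tested MHC class II and dendritic cell genes reached 4-fold. H2-Aa gave 26 UMIs, 25 of them from 1 barcode, and Ciita, Xcr1, Clec9a and Cd209a were at 0. Cd74, the invariant chain, was at 134 against 48.1 CPM, but 76.4% of its UMIs came from 5 barcodes.

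Lyve1 and Ccr2 were never found in the same barcode. The 35 barcodes with Lyve1 had a median depth of 17621 UMIs, the 17 with Ccr2 25152 and the 30 with neither 11865. Folr2 had a UMI in 28 of the 35 Lyve1 barcodes and in 2 of the 17 Ccr2 barcodes. Pf4 was at 4237 CPM (95% interval 4078 to 4401) in the Lyve1 barcodes and 637 (565 to 715) in the Ccr2 barcodes. Gas6, a bridging ligand for the uptake of dying cells, was at 349 and 38.1 CPM, and its receptor Mertk at 207 and 49.3 CPM. Ltc4s, a leukotriene synthase, was at 144 and 6.73 CPM.

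On the other side, Il1b, the inflammatory cytokine, was at 558 CPM (491 to 632) in the Ccr2 barcodes and 56.9 (39.8 to 78.7) in the Lyve1 barcodes. In the Ccr2 barcodes 122 of its UMIs came from 1, and without the barcode of most Il1b UMIs in each set, a step added after seeing the data, the levels were 304.0 and 42.4 CPM. The same step left Gas6 at 328 CPM in the Lyve1 and 21.7 in the Ccr2 barcodes. Plac8, a monocyte gene, was at 144 and 1.58 CPM. F13a1 had a UMI in 31 of the 35 Lyve1 and 15 of the 17 Ccr2 barcodes, and P2ry12 in 16 and 9. Multiplexing tags were on 23 of 35 Lyve1 and 15 of 17 Ccr2 barcodes, and their part in these differences was not tested. The 2 sets were named from genes of the same counts after their values had been seen, and the intervals cover counting error only.

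**Figure D3:**
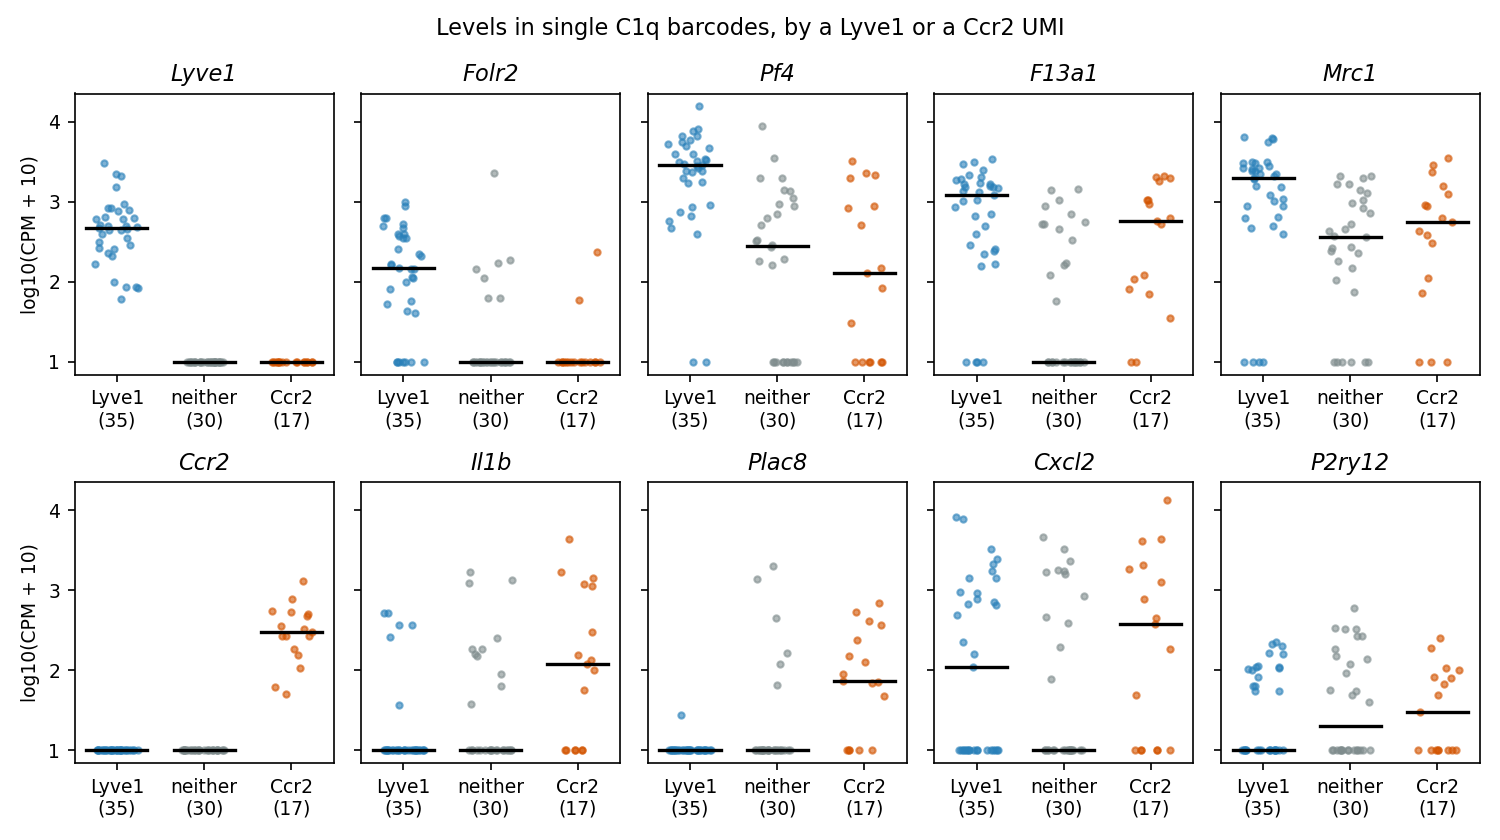
Each point is 1 C1q barcode and shows log10 of CPM plus 10 for the gene named above the panel; barcodes are grouped by a Lyve1 UMI (35), a Ccr2 UMI (17) or neither (30), and lines mark medians. Points at 1 have no UMI of the gene. Lyve1 and Ccr2 barcodes did not overlap, Folr2 and Pf4 lay higher with Lyve1, Il1b and Plac8 higher with Ccr2, while Cxcl2 and P2ry12 were spread over all 3 groups.

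Of 18 lysosome and proteolysis genes 10 were at least 4-fold higher and none lower. Ctsb, a lysosomal cysteine protease, was at 2022 against 146 CPM with a UMI in 81 barcodes, and Lgmn, which activates cathepsins, at 836 against 46.4 CPM. Ctsc was at 1038 against 37.1 CPM. Ctsl, in contrast, was at 518 against 363 CPM (ratio 1.43) and Cd63 at 412 against 279 CPM. Of 15 tested phagocytosis and scavenger receptors 7 were higher. Trem2, a lipid-sensing receptor, was at 317 against 4.41 CPM (68 barcodes), Fcgr3 at 284 against 9.31 CPM, and Stab1 at 472 against 51.9 CPM. Cd36 was at 301.9 against 326 CPM, and Axl and Fcgr2b were also short of 4-fold.

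Other complement genes varied. C1ra and C1s1, which encode the C1r and C1s subunits, had no UMI, which at 3 counts allows up to 1.90 CPM each, and the other barcodes had 1.83 and 1.88 CPM, so a difference was not detectable at this depth. C3 was at 8.88 against 17.9 CPM. The receptors of the cleaved fragments were higher, C3ar1 at 260.0 against 2.79 CPM (66 barcodes) and C5ar1 at 146 against 4.70 CPM (50 barcodes). Cfp, properdin, was at 51.4 against 4.58 CPM. The surface inhibitors Cd55 and Cd59a were at least 4-fold lower, at 3.17 against 50.5 and 5.07 against 68.3 CPM.

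Haem and iron genes included 6 of 16 at least 4-fold higher. Hmox1, which opens the haem ring, was at 619.6 against 26.5 CPM, but very unevenly. It ran from 0 over 101 to 11853 CPM, and 78.3% of its UMIs came from 5 barcodes. The ferritin chains Fth1 and Ftl1 were found in all 82 barcodes, at 7537 and 7404 CPM against 1467 and 1763. Among lipid genes 5 of 14 were higher. Apoe, the lipoprotein that carries cholesterol out of macrophages, was the most abundant gene of these lists after the ferritins, at 7232 against 457 CPM and from 442 over 6294 to 39524 CPM. Abca1, the cholesterol exporter, was at 481 against 55.2 CPM. Spp1, osteopontin, was at 367 against 11.5 CPM, with 89.4% of its UMIs from 5 barcodes. Fabp4, a fatty acid carrier of capillary ECs, was at 159 against 3160 CPM.

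Chemokines split into 7 of 13 higher and 3 lower. Cxcl2, which attracts neutrophils, was at 1056 against 17.7 CPM, from 0 over 19.9 to 13488 CPM, with a UMI in 41 barcodes and 48.8% of its UMIs in 5. Ccl4 was at 611 against 21.0 CPM (55 barcodes), and 36 barcodes held both. Ccl2, Ccl3, Ccl7, Ccl9 and Ccl12 were the other higher members. Cxcl10 was at 17.1 against 112 CPM, and Ccl5 and Cxcl9 were at 0, which allows up to 1.90 CPM each, against 47.8 and 57.8 CPM. Of 17 cytokines and growth factors 3 were higher, Il1b (238 against 14.5 CPM), Tnf (99.6 against 7.91 CPM) and Il18 (60.9 against 4.09 CPM), while Il6 was at 0. Among receptors Tlr2, Tlr7 and Tnfrsf1b joined Csf1r. Of 11 interferon-stimulated genes 1 was higher, Ifi27l2a, and 2 were lower, Rsad2 (7.61 against 119.6 CPM) and Isg15 (42.5 against 217 CPM).

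Many C1q barcodes held cell cycle transcripts. Mki67, a nuclear protein of cycling cells, was at 266 against 136 CPM and Top2a, which untangles replicated DNA, at 358 against 291 CPM. None of the 16 S and G2/M phase genes reached 4-fold. Both Mki67 and Top2a had a UMI in 35 of 82 barcodes and neither in 27, against both in 20.0% of the other barcodes, which were shallower. Thinned, 22.9% of C1q and 14.4% of other barcodes kept an Mki67 UMI, and 31.6% and 25.6% a Top2a UMI, which 32.0% of the 421 barcodes with 3 or more UMIs each of the neutrophil-lineage genes Ngp and Camp kept. Free RNA held Mki67 at 156 CPM, and its part in these shares was not tested. Of the Lyve1 barcodes 16 of 35 had both genes, as did 8 of 17 with Ccr2.

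**Figure D4:**
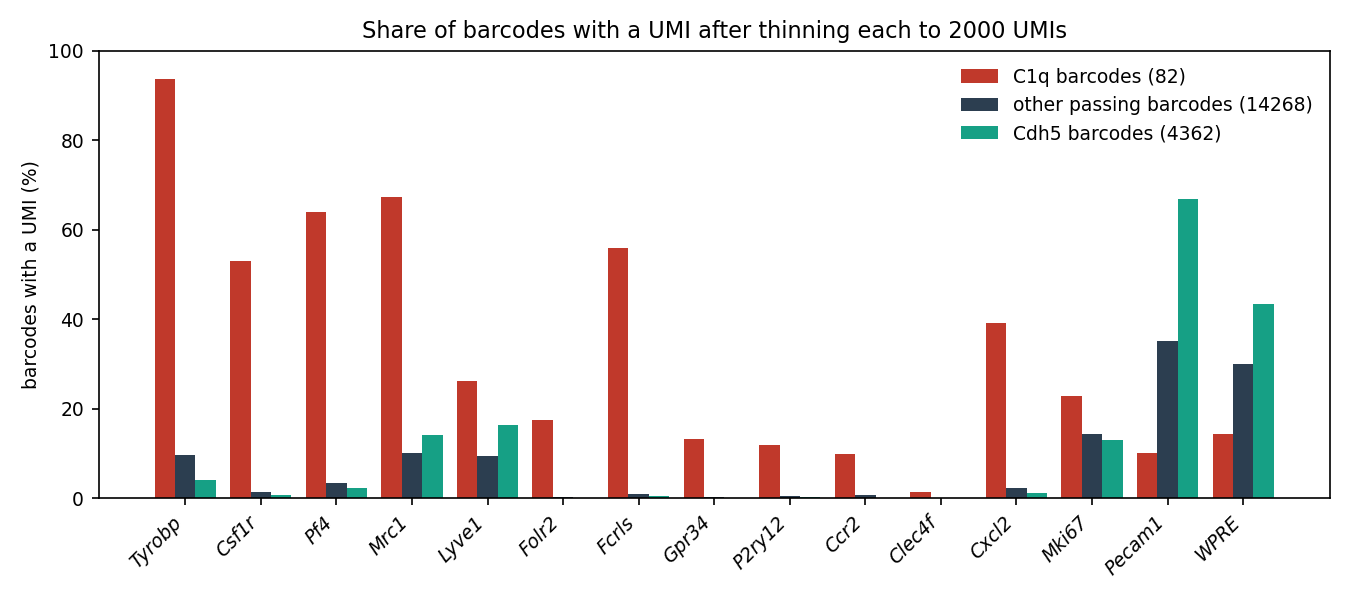
Share of barcodes (%) with a UMI of each gene after thinning every barcode to 2000 UMIs, for the 82 C1q barcodes, the 14268 other passing barcodes and the 4362 Cdh5 barcodes. Tyrobp was kept by 93.8% of C1q barcodes and Clec4f by 1.38%, while Pecam1 and WPRE were more often kept by Cdh5 barcodes.

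Transcripts of other cell types were low and mostly below their level in free RNA, which was measured in 24194 barcodes of 10 to 100 UMIs. All 12 endothelial genes were at least 4-fold lower. Their sum was 162 CPM, 7.46% of the free RNA level, with Egfl7 the most abundant. Pecam1, the CD31 gene used in the sort, was at 19.0 against 261 CPM with a UMI in 22 barcodes and at most 3 UMIs in 1. The 10 hepatocyte genes summed to 247 CPM, 3.94% of the free RNA level, and 9 were at least 4-fold lower. The exception was Trf, transferrin (172 against 227 CPM), which was also the most abundant. Erythroid genes summed to 2191 CPM, 3.83% of free RNA, with Hbb-bs leading, in barcodes already limited by their globin share. Fibroblast genes summed to 245 CPM against 1519 in the other barcodes, led by Col1a1.

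In 11 barcodes Col1a1 had 3 or more UMIs, and the highest single barcode held 4282 CPM of the fibroblast list. Neutrophil-lineage genes were concentrated in 2 barcodes. S100a8 gave 1166 UMIs, 1033 from 1 barcode and 112 from another, and the median barcode had none. The list summed to 1771 CPM against 3365 in the other barcodes and 2073 in free RNA, with S100a9 the most abundant and Elane at 0. Without these 2 barcodes, a step added after seeing the data, 247 genes were at least 4-fold higher and 382 lower. Lymphocyte genes summed to 45.02 CPM, with Cd3e, Cd3d, Cd79a, Ms4a1, Nkg7 and Gzma among those at 0, and mast cell and basophil genes to 8.24 CPM. Genes of keratinocytes summed to 43.1 CPM, of chondrocytes to 105, of neural cells to 52.0 and of cardiomyocytes to 50.1 CPM, each below free RNA, with Myh6 and Myh7 at 0. Single barcodes reached 9622 CPM of the cardiomyocyte and 2859 CPM of the chondrocyte list.

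Of the transgene sequences, WPRE, Tomato, Cre, ERT2 and the polyA sequences Sv40-pA and Bgh-pA were below their levels in free RNA. Sv40-pA was at 40.0 CPM against 142 in free RNA. WPRE, an element in the 3′ part of the reporter transcript, was at 92.6 CPM (95% interval 78.2 to 109), against 160.4 in free RNA and 381 in the Cdh5 barcodes, and 54.8% of its UMIs came from 5 barcodes. Tomato was at 11.4 CPM (6.77 to 18.0) against 30.3 in free RNA and 83.9 in Cdh5 barcodes. Cre gave 2 UMIs. FlpE was at 31.7 CPM (23.5 to 41.8) against 23.8 in free RNA, with 74.0% of its UMIs from 5 barcodes. It was at 17.0 CPM in the Cdh5 barcodes and 50.8 in the other passing barcodes. A share of C1q barcodes that expressed the reporter themselves could not be read from these levels.

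Graph clustering of the 82 barcodes alone gave 3 sets, which were left unnamed. The first held 41 barcodes with a median of 6403 UMIs and 16 multiplexing tags, and was led by the replication-dependent histone genes H1f5 and H2ac8 (with a UMI in 33 and 26 barcodes) and by Foxp2, Mecom and Robo1 (11, 9 and 12 barcodes). Mki67 was found in 24 of them. Some genes of other cell types were also highest there: Col1a1 was at 163 CPM against 6.57 and 9.49 in the other sets, Col3a1 at 150.2 against 2.19 and 9.49, and Fabp4 at 279 against 41.6 and 87.8. All 53 UMIs of Col2a1, a cartilage collagen, and all 27 of Pdgfra, a fibroblast receptor, came from 8 and 9 of its barcodes. The second held 23 barcodes (median 19363 UMIs, 20 tagged) and was led by Thbs1, Il1b, Plac8, Wfdc17 and Bcl2a1b. Of these 12 had Ccr2 and 1 had Lyve1. The third held 18 barcodes (median 22385.5 UMIs, 17 tagged), of which 17 had Lyve1 and 1 had Ccr2. In the first, 17 had Lyve1 and 4 had Ccr2. The third set's leading genes, S100a9, S100a8, Stfa1, Cstdc5 and Cstdc4, had UMIs in only 3 to 5 of its barcodes, so the 4 neutrophil markers among its top 10 were not used to name it. Depth and tags differed between the sets, and their part in the clustering was not tested.

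Several macrophage genes, Ccr2, Ms4a7 and Mrc1 among them, were higher in the tagged than in the untagged C1q barcodes. The 3 chains, whose levels the rule bounds from below, had ratios of 0.961 (C1qa), 1.17 (C1qb) and 1.25 (C1qc). The ratio was 1.56 for Csf1r (95% interval 1.23 to 2.01), 1.79 for Adgre1, 2.50 for Lyz2, 1.69 for Cd68, 1.50 for Spi1, 1.27 for Tyrobp and 0.959 for Fcrls (0.781 to 1.19). It was below 1 for Folr2 (0.608, 0.417 to 0.904), Spp1 (0.652) and Hpgd (0.501). Of the 449 tagged Spp1 UMIs, 417 came from 1 barcode. Of the 108 untagged Hpgd UMIs, 77 came from 1 barcode, so the Spp1 and Hpgd ratios depend on single barcodes. Mrc1 was at 1793 and 719.5 CPM, and Ms4a7, a macrophage membrane protein, at 301.2 and 60.3 CPM. Hmox1 was at 705 and 165 CPM, but without the 5 barcodes with most of its UMIs, all tagged, it was at 139.8 and 165 CPM, a step added after seeing the data. Ccr2 was at 109.9 CPM in the tagged and 12.1 in the untagged barcodes, where 2 of 29 had a UMI, and without the 5 barcodes of most Ccr2 UMIs it was at 49.3 and 12.1 CPM. Fabp4 and Sparc were lower in the tagged barcodes too, at 56.5 and 65.5 CPM in the tagged and 707 and 394 CPM in the untagged barcodes. Without the 5 barcodes of most Fabp4 UMIs that gene was at 44.6 and 325 CPM. The untagged barcodes were shallower at the median but included barcodes of 49410 and 48677 UMIs, which weigh heavily in their sums. The highest multiplexing features of these deep barcodes had 3449 and 1075 UMIs without being dominant. The parts of depth, free RNA and tag in the differences between tagged and untagged barcodes cannot be told apart here.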

How the data were processed

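The authors aligned the gene and hashtag reads of the pooled liver and heart library with Cell Ranger 7.1.0 to GRCm38, Ensembl build 98, with transgene sequences added, and deposited raw UMI counts per gene and barcode without normalization or cell filter: 2755147 barcodes, 21951 genes and transgene sequences and 13 tags. Of these barcodes 24101 had 2000 to 75000 gene UMIs, 24061 of them more than 500 genes, 23221 of those a mitochondrial share under 5%, and 14350 also a globin share under 5%. C1q barcodes were taken by the stated rule. UMIs were summed per set and divided by the set's total to give CPM, and log2 ratios had 10 CPM added. Intervals are exact 95% Poisson (sums), binomial (shares) and conditional (ratios) intervals and cover counting error only. With 1 library there is no test. The 2 GEO samples are the gene and hashtag reads of that library.

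Hashtags were called with HTODemux (Seurat 5.3.0, R 4.3.3, positive quantile 0.99). Doublets were only those it called, and they were kept, since the rule takes any hashtag. Leiden clustering (resolution 0.5) used scanpy 1.11.5 in Python 3.11.15, and intervals scipy 1.17.1. The code for ratios and thinning was tested on simulated data. A further 7 tags without a group in the labels were used only as described. Genes named come from the gene lists, the 10 highest and 10 lowest ratios, and the 5 leading genes of each cluster. The members and lists were chosen with earlier results of these data known. Sets with 3 or more UMIs of Cdh5, or 10 or more each of Alb, Afp and Ttr, served as comparison. Co-detection and the Lyve1 and Ccr2 sets were described after the values were seen. Many list members are given only in their list's count, and some genes are not reported here.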

Additional observations from a re-analysis of the deposited data

Results flagged for a closer look

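Multiplexing features CMO301 to CMO305, which have no group in the labels and enter none of the group comparisons, were dominant on 64.6% of C1q barcodes, above the 27.8% of the other passing barcodes. CMO304 was dominant on 19 of them, CMO302 on 17, CMO305 on 9, CMO303 on 7 and CMO301 on 1. Which animals or tissues these features stand for is not given in the sources used here.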

How the results depend on the processing

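In all, 21 listed alternatives and 6 added after seeing the data were run. Of 680 log2 ratios for 40 named genes under the 17 alternatives for barcodes or levels, 678 kept their direction. The 2 that reversed were Alb (0.27) and Afp (0.35) when 1 UMI of each C1q gene sufficed, and the cause was not tested. All 80 under the added alternatives kept it. Of the 680, 24 crossed the 4-fold line (10 of them with 50 CPM added) and 187 left their counting interval, as did 7 and 34 of the 80. Called genes went below 4-fold in some settings: the lowest log2 ratio was 0.60 for Ccr2, 0.78 for Lyve1, 1.41 for Maf and 1.67 for Slc40a1, each without multiplexing-tagged barcodes, and 1.53 for Folr2, 1.14 for P2ry12, 1.29 for Gpr34, 1.97 for Fcgr1 and 1.84 for C5ar1 with 50 CPM added. Of the lower genes, Id3 came to -0.92 and Pecam1 to -1.95 with any Cdh5, and Klf4 to -1.51 with 50 CPM added. The tagged to untagged ratio of Hmox1 was 0.85 without the 5 barcodes of most Hmox1 UMIs, in place of 4.28.

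The number of barcodes was 155 (1.08%) with at least 1 UMI of each C1q gene, 49 (0.341%) with at least 10, and 150 (1.05%) with any Cdh5. The share was 0.446% with at least 5 UMIs of each, 0.418% without Pecam1, 0.392% without a globin limit, 0.439% from 1000 UMIs and 0.823% from 5000 UMIs. Leaving out barcodes with a multiplexing tag left 29 (0.281%), with 144 genes at least 4-fold higher in place of 245. Genes at least 4-fold lower numbered 153 with at least 1 UMI of each, 131 with any Cdh5 and 240 without a globin limit, in place of 368. With 1 CPM added the counts were 433 higher and 1921 lower, with 50 CPM added 81 and 50, and at 2-fold 709 and 1720. By its highest count (at least 10 UMIs and 3 times the next), a single hashtag was given to 75 C1q barcodes in place of 27, all iSuRe-Cre liver. The same call gave iSuRe-Cre liver to 11594 of the 14350 passing barcodes, so it does not place the C1q barcodes in that group. By at least 25 UMIs and 5 times the median, a single hashtag was given to 2 C1q barcodes, in place of 27. Resolution 1 gave 6 clusters and resolution 0.25 gave 2, in place of 3. No paired analysis was possible because the library was 1 pooled sample without replicates.

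The precision is set by 82 barcodes: a gene in 1 or 2 of them, such as Clec4f or Vsig4, rests on single droplets, and low genes are often missed in the barcodes of few UMIs.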
